A study of Mus musculus with 8 samples.

Results

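The matrix metalloproteinases (MMPs), their tissue inhibitors (TIMPs) and the ADAM and ADAMTS proteases were examined in mouse liver as 79 genes among the 36666 gene names on the array. Members were the genes whose name on the array was Mmp, Timp, Adam or Adamts followed by a number and at most 1 further letter. They comprised 23 MMP, 4 TIMP, 33 ADAM and 19 ADAMTS genes, carried by 154 of 56605 non-control probes. The samples were livers of 80-week-old male mice (80W, n = 4) and of 8-week-old male mice (8W, n = 4). Both groups had received acetaminophen, a painkiller that is toxic to hepatocytes at high dose, 8 h earlier. Neither dose nor strain is stated in the labels, nor whether the samples of a group came from different animals, so a p-value reflects only sample-to-sample spread and that spread may be technical. With no untreated livers among the samples analysed here, age differences that exist at rest and age differences in the drug response cannot be told apart.

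MMPs are zinc proteases that cut collagens, laminins, proteoglycans and other extracellular proteins, and most are made as inactive precursors that other proteases trim. TIMPs bind the active site of MMPs and, in part, of ADAMs. ADAMs are mostly membrane-bound and release the outer parts of growth factors, cytokines and receptors, whereas ADAMTS enzymes are secreted and process procollagens, proteoglycans and von Willebrand factor. In injured liver these genes are expressed by leukocytes, macrophages, stellate cells and endothelium, and AP-1 transcription factors drive several of the inducible MMPs.

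Many MMP genes lie next to each other on chromosome 9, where the probes of 10 members spanned 417 kb on build mm9. The promoters of Mmp3, Mmp7 and Mmp12 are shown as examples. They belong to the 6 of 7 detected cluster genes whose highest value was on 8W replicate 2. Mmp7, Mmp10 and Mmp13 of these were not tested, and Mmp10 and Mmp13 were above background on only 1 8W array, so their place adds no support. The relation of promoter motifs to these values was not tested. Each sequence holds 250 bases before and 50 after the RefSeq start on GRCm38.p6, and capitals mark an AP-1 motif (TGACTCA on either strand) or a TATA box (TATAAA on either strand).
Mmp3 promoter, chr9:7445572-7445871, plus strand: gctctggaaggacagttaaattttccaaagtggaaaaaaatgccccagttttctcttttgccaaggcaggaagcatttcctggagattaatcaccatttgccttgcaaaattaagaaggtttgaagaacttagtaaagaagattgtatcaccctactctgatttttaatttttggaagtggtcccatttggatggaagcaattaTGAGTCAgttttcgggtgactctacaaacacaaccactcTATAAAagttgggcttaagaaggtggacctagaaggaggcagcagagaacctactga
Mmp7 promoter, chr9:7691840-7692139, plus strand: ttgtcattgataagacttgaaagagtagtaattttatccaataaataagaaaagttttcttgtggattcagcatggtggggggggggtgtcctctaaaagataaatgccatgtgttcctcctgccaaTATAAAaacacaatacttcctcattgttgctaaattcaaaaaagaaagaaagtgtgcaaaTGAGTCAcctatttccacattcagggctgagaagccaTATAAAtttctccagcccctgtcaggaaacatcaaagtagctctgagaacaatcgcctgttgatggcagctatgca
Mmp12 promoter, chr9:7347124-7347423, plus strand: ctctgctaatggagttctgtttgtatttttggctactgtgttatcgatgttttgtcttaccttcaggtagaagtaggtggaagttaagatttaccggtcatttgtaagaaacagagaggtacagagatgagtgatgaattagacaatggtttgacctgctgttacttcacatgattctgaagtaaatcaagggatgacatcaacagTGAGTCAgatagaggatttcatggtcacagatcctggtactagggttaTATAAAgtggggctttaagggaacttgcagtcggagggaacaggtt
The AP-1 motif was present in the promoters of 7 of the 10 chromosome 9 MMPs and the TATA box in 9. Of the cluster genes highest on 8W replicate 2 that are not shown, Mmp10 and Mmp13 held the AP-1 motif and Mmp8 did not. Of 49 members with a promoter in the table, 10 held the AP-1 motif (20.4%), against 1607 of 27025 genes in all (5.95%). The TATA box was found in 14 of the 49, against 15.7% of all genes. Among the MMPs alone the AP-1 motif occurred in 7 of 18 promoters and the TATA box in 10, while no TIMP or ADAMTS promoter in the table held the AP-1 motif. A match of letters is a description and not a shown binding site.

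The array reads each gene through 60-base probes. The first 30 bases of the probes behind the 5 members with an unadjusted p under 0.05 are given, with the position of the whole probe on mm9.
Adamts14 probe, chr10:60659860-60659919, minus strand: tcaagtcatgtgtggaccggcctggagatg
Mmp3 probe, chr9:7455751-7455810, plus strand: ctttgtgaaaggaagtgctttgttcagcat
Mmp15 probe, chr8:97897703-97897762, plus strand: tttagttctgtagataatcagcactgatta
Mmp14 probe, chr14:55058775-55058834, plus strand: ggacagcgagtaccctaaaaacatcaaagt
Mmp23 probe, chr4:155025377-155025436, minus strand: gtgtgcatcctgggcacgaaagggattttg

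Signals below are log2 intensities scaled to the 75th percentile of their array, and a difference is 80W minus 8W. The 8W replicates 1 and 2 stood apart from the other 6 arrays, at -61.3 and -99.3 on a first principal component that held 49.1% of the variance, where the others ran from 10.2 to 47.5. Of the 36 members tested, 12 changed the sign of their difference when both arrays were left out, and 24 did not. The hepatocyte markers were all testable (10 of 10), and their mean deviation from each gene's mean ranged from -0.17 to 0.37 in 80W livers. On 8W replicates 1 to 4 it was -0.10, -0.80, 0.37 and 0.38, so 8W replicate 2 was by far the lowest. In whole liver RNA, fewer cells of a type and less RNA per cell cannot be told apart.

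The number of detected members overlapped between the ages. Between 35 and 38 of the 79 members were well above background on each 80W array, and between 33 and 39 on each 8W array. For MMPs the number was 10 to 12 on 80W arrays and 9 to 15 on 8W arrays, the 15 belonging to 8W replicate 2. For TIMPs it was 3 on every 80W array and 3 or 4 on 8W arrays, for ADAMs 12 to 13 against 11 to 14, and for ADAMTS genes 9 to 10 against 8 to 9. All of these ranges overlapped. Detection differed more between families than between ages, since on average 75% of the TIMPs but 38.6% of the ADAMs were detected on an 80W array, and 81.2% and 37.9% on an 8W array. The ADAM family includes many genes known for expression in testis or sperm.

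**Figure D1:**
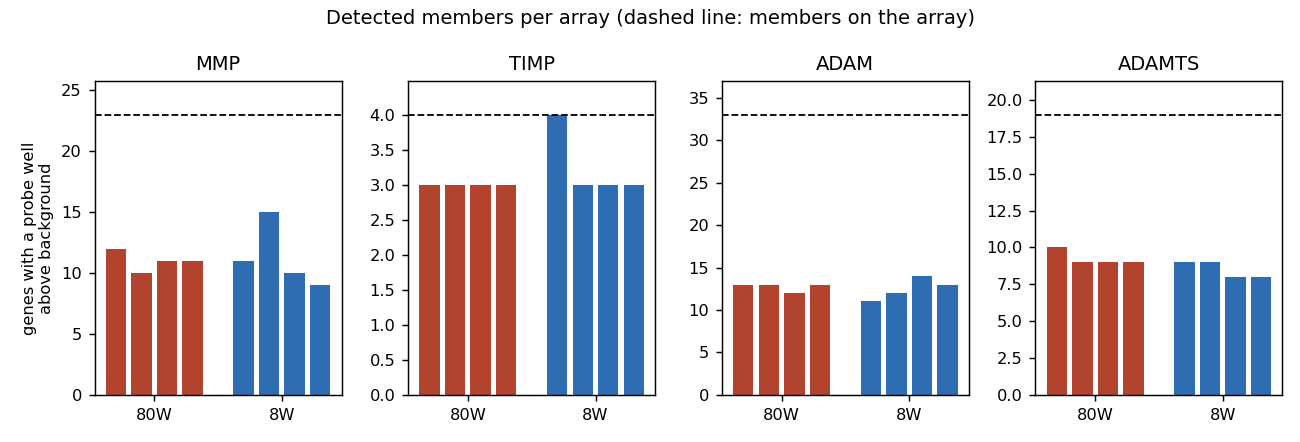
Number of MMP, TIMP, ADAM and ADAMTS genes with a probe well above background (vertical axis) on each of the 4 80W arrays (red bars) and 4 8W arrays (blue bars), with replicates 1 to 4 from left to right. The dashed line marks the members on the array (23, 4, 33 and 19), and the ranges of the ages overlap in every family.

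Of the 79 members, 26 were well above background on all 8 arrays, 28 on none and 25 on 1 to 7. The test required a detected probe on 4 or more of the 8 arrays, which 36 members (45.6%) and 17567 of all genes (47.9%) reached: 12 MMPs, 3 TIMPs, 13 ADAMs and 8 ADAMTS genes. The collagenases Mmp1a and Mmp1b, the aggrecanase Adamts5 and the protease Adam28 were among those above background on no array. Mmp13, a collagenase, and Timp4 were above background on 1 8W array and no 80W array, and Adam12 on 1 80W array and 2 8W arrays.

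No member passed the threshold of 0.05 on the adjusted p of limma (0 of 36), where 0.359% of all tested genes did (63 of 17567). Of these, 58 genes (0.33%) were higher and 5 (0.0285%) lower in 80W livers. The lowest adjusted p was 0.291, for Adamts14. An unadjusted p under 0.05 was found for 5 members (13.9% of 36), beside 14.1% of all genes. The 3 higher members stood beside 7.92% of all genes and the 2 lower members beside 6.14%, so the members' share was close to that of the array as a whole. On the probe chosen for each gene, the values of the groups did not overlap for 1 member, Adamts13 (2.78%), beside 8.39% of all genes. It was higher in 80W livers, as were 4.63% of all genes without overlap, and 3.76% were lower. By sign alone, 16 members were higher and 20 lower in 80W livers, and 52% of all genes were higher.

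The families spread around zero without a common direction. The median difference was 0.26 for the 12 MMPs, -0.23 for the 3 TIMPs, -0.10 for the 13 ADAMs and 0.085 for the 8 ADAMTS genes, beside -0.075 for all 36 members and 0.018 for all genes. Leaving out single arrays gave medians from -0.017 to 0.31 for MMPs, from -0.48 to -0.00063 for TIMPs, from -0.30 to -0.051 for ADAMs, from -0.080 to 0.27 for ADAMTS genes and from -0.20 to 0.099 for all members. The MMP median was -0.01 with normexp background correction. With median scaling, which shifts every gene alike, the ADAMTS median was -0.02. The median size of a difference, ignoring sign, was 0.42 for the members and 0.28 for all genes, and the members' SE ran from 0.17 for Adam9 to 0.92 for Adamts4.

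**Figure D2:**
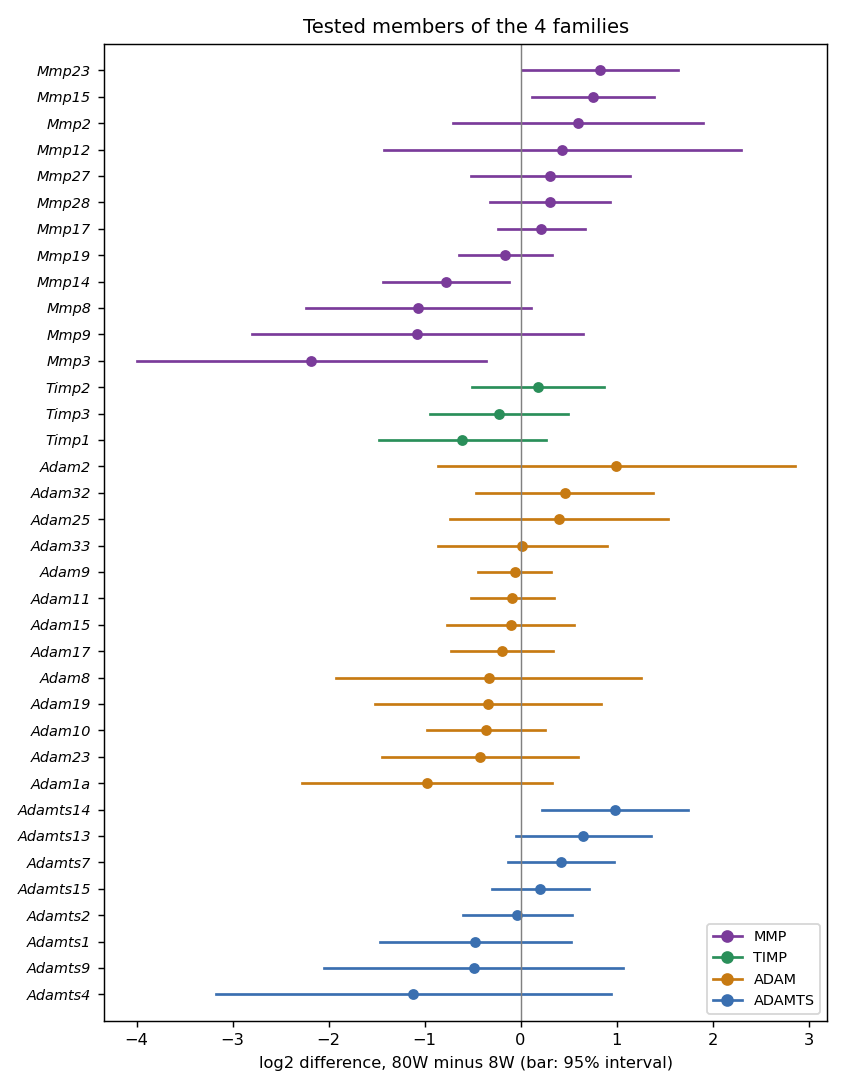
Log2 difference, 80W minus 8W, for each of the 36 tested members (points) with its 95% interval (bars), grouped by family from MMPs at the top to ADAMTS genes at the bottom. Differences run from -2.18 for Mmp3 to 0.99 for Adam2, and no member passed the adjusted threshold.

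Among the stromelysins and matrilysin, Mmp3 had the largest difference of any tested member. Mmp3, which cuts proteoglycans and activates other MMPs, stood at -1.39, -3.23, -2.55 and -4.71 on the 80W arrays and at -1.23, 1.25, -1.08 and -2.10 on the 8W arrays. Only 80W replicate 1 reached into the 8W range, and the probe was above background on 2 of 4 80W arrays and on all 8W arrays. The difference was -2.18 (SE 0.81, limma adjusted p = 0.306) and -1.38 (SE 0.84) without 8W replicates 1 and 2. Mmp7, matrilysin of epithelial cells and another gene of the chromosome 9 cluster, was not tested, and is named because of its values. Its brighter probe stood at -3.48, -3.52, -3.76 and -5.37 on the 80W arrays, none above background. On the 8W arrays it stood at -1.02, 2.50, -2.47 and -3.06, 3 of them above background. On this probe all 8W values of Mmp7 exceeded all 80W values, with the widest step at 8W replicate 2. On a second Mmp7 probe the ages overlapped, with -4.82, -5.19, -5.04 and -4.19 in 80W livers and -2.64, 0.77, -2.12 and -5.10 in 8W livers. The means of the brighter probe differed 8.11-fold, with 8W livers higher, and 2.40-fold without 8W replicates 1 and 2. These ratios use 80W values that were not above background, are not lower bounds and do not allow for sampling error.

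Several other chromosome 9 genes were also highest on 8W replicate 2. Of the 4 tested cluster MMPs, Mmp3, Mmp8 and Mmp12 had their highest value there and Mmp27 had it on 80W replicate 1. That 8W array held the highest value of 20.2% of all tested genes, a share that does not cover untested genes. The untested Mmp7, Mmp10 and Mmp13 were also highest on it. Mmp10, another stromelysin, and Mmp13 were each above background on 1 8W array and on no 80W array. A high value on 1 8W array was thus a condition of their being counted as detected, so their place adds no support.

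Mmp8, the collagenase stored by neutrophils, was 0.04, 0.65, -1.35 and -1.72 in 80W livers and 0.34, 1.27, 0.22 and 0.05 in 8W livers. Of the 4 80W arrays, 3 lay below all 8W arrays, replicate 1 by a narrow margin, and replicate 2 lay within their range. The difference was -1.06 (SE 0.52, limma adjusted p = 0.385), and -0.73 without 8W replicates 1 and 2. Mmp9, the gelatinase made by neutrophils and macrophages, was also lowest on 80W replicates 3 and 4, with -2.27, -2.19, -5.07 and -5.08, against -2.30, -1.37, -3.35 and -3.27 in 8W livers. Mmp9 was above background on 2 arrays of each age and differed by -1.07 (SE 0.77). Without 8W replicates 1 and 2 the Mmp9 difference was -0.34, and it ran from -1.33 to -0.60 when single arrays were left out. Neutrophil markers were lowest on the same 80W arrays: over the 10 of 13 tested, 3 were higher and 7 lower, none past the threshold, and their mean deviation was 0.17, 0.15, -0.43 and -0.58 in 80W livers and 0.05, 0.49, 0.02 and 0.12 in 8W livers. Among these markers the receptor Cxcr2 differed by -1.47 (SE 0.66) and Lcn2 by -0.65 (SE 0.45), or by -0.88 and -0.27 without 8W replicates 1 and 2, while Mpo, Ngp and Ltf were too dim to test. The part of neutrophil content in the Mmp8 and Mmp9 values was not tested.

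Mmp2, the gelatinase of stromal cells, differed by 0.60 (SE 0.58), and by -0.11 without 8W replicates 1 and 2. Mmp12, the macrophage elastase, was -1.65, -1.78, -1.86 and -1.15 in 80W livers, a narrow band, and -0.71, -0.07, -4.42 and -2.98 in 8W livers. On this probe the 80W values lay between the 2 high and the 2 low 8W arrays, and the low ones were not above background. Counting all its probes, Mmp12 was detected on 4 80W arrays and 3 8W arrays. The difference was 0.44 (SE 0.83, limma adjusted p = 0.823) with all arrays and 2.09 (SE 0.41, limma adjusted p = 0.212) without 8W replicates 1 and 2. Macrophage marker lists gave no common pattern on the 8W arrays. The monocyte and recruited macrophage list (7 higher, 5 lower, none past the threshold) had mean deviations of 0.12, -0.35, 0.10 and -0.11 in 80W livers and 0.13, 0.50, -0.22 and -0.18 in 8W livers. The Kupffer cell list had 0.92, -0.27, 0.09 and -0.26 in 80W livers and 0.17, -0.20, -0.51 and 0.07 in 8W livers, so the first list was highest on the 8W array where Mmp12 was highest and the Kupffer cell list was not. In the monocyte list Chil3 differed by -3.73 (SE 0.80) and Gpnmb by 1.56 (SE 0.33), neither past the threshold (limma adjusted p = 0.117 and 0.108), and by -2.27 and 2.10 without 8W replicates 1 and 2. Their relation to Mmp12 was not tested.

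The membrane-type MMPs went both ways. Mmp14, which activates pro-MMP2 at the cell surface, was -1.49, -0.75, -1.37 and -1.04 in 80W livers and -0.21, 0.27, -0.95 and -0.66 in 8W livers. The highest 80W array exceeded only the lowest 8W array, and the difference was -0.78 (SE 0.29, limma adjusted p = 0.309). Mmp15, another transmembrane MMP, was higher in 3 of 4 80W livers than in any 8W liver, with -1.63, -1.08, -0.54 and -0.90 against -1.95, -2.21, -1.76 and -1.27. It differed by 0.76 (SE 0.28, limma adjusted p = 0.306). Without 8W replicates 1 and 2 the differences were -0.36 for Mmp14 and 0.47 for Mmp15. Mmp17, which is anchored by a lipid, differed by 0.22 (SE 0.20). Among the other MMPs, Mmp23 was -1.98, -2.09, -2.44 and -3.11 in 80W livers, all above background, and -4.17, -3.17, -2.82 and -2.78 in 8W livers, with 2 above background. Its difference was 0.83 (SE 0.36, limma adjusted p = 0.353), or 0.39 without 8W replicates 1 and 2. Mmp19 differed by -0.16 with a 95% interval of -0.64 to 0.32, Mmp28 by 0.31 (SE 0.28) and Mmp27 by 0.31 (SE 0.37). Without 8W replicates 1 and 2, Mmp28 turned to -0.10 and Mmp27 was 0.90.

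**Figure D3:**
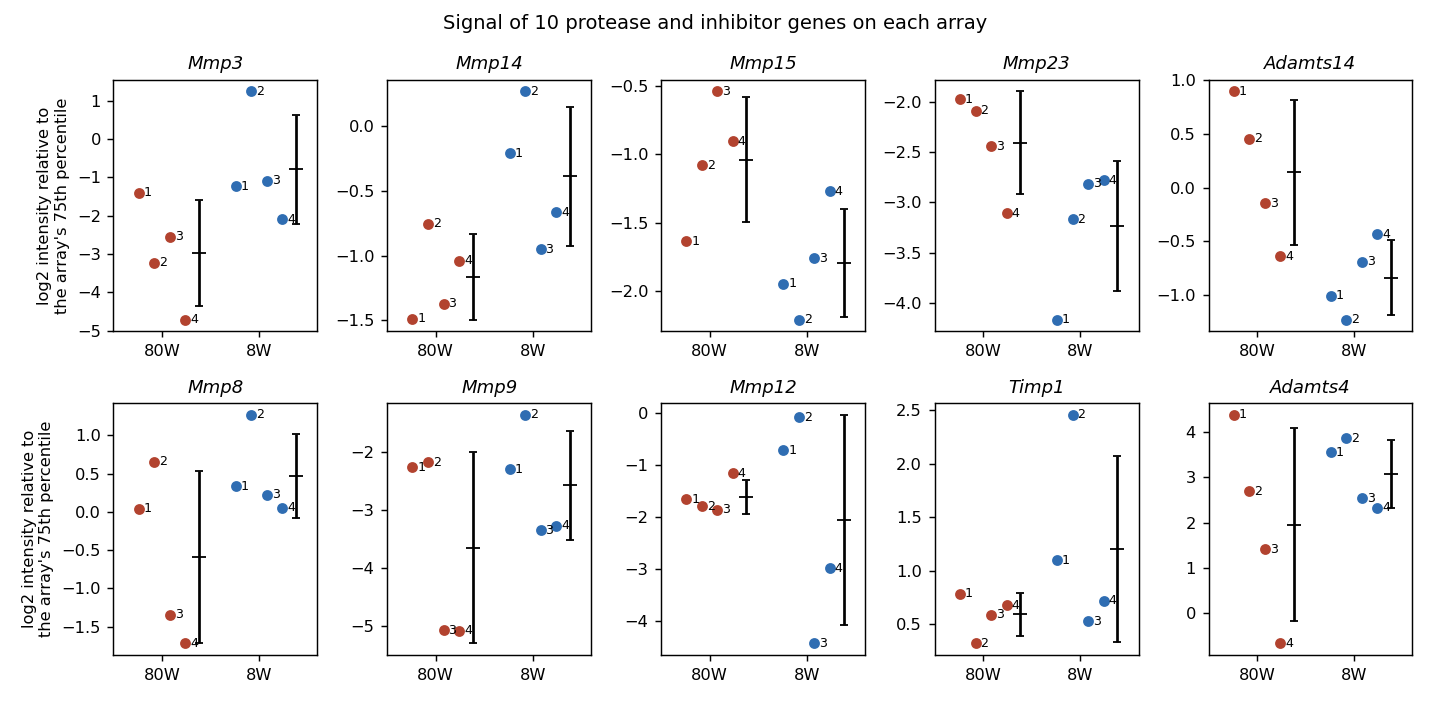
Log2 intensity relative to the array's 75th percentile (vertical axes) of 10 members on the 4 80W arrays (red) and the 4 8W arrays (blue), numbered by replicate, with the mean and SD (n = 4) in black. Mmp3 is at -4.71 on 80W replicate 4, Timp1 is highest on 8W replicate 2 and Mmp12 spans -4.42 to -0.07 in 8W livers.

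The inhibitors were measured well, with 3 of 4 TIMPs above background on all arrays. Timp1, the TIMP best known for induction by injury, was 0.79, 0.32, 0.59 and 0.68 in 80W livers and 1.10, 2.46, 0.53 and 0.72 in 8W livers. The 8W replicates 3 and 4 lay inside the 80W range and 8W replicate 2 far above it. The difference was -0.61 (SE 0.39, limma adjusted p = 0.477), and -0.03 (SE 0.18) without 8W replicates 1 and 2. Timp2, which also takes part in MMP2 activation, was 4.86, 4.14, 3.90 and 3.75 in 80W livers and 3.41, 3.86, 4.44 and 4.21 in 8W livers, so the ranges overlapped. It differed by 0.18 (SE 0.31), or -0.16 without 8W replicates 1 and 2. Timp3, the matrix-bound TIMP that also inhibits ADAM17, was 4.58, 4.22, 3.13 and 3.30 in 80W livers and 4.06, 3.92, 4.08 and 4.08 in 8W livers. The 8W arrays lay close together while the 80W arrays fell on both sides of them, and the difference was -0.23 (SE 0.32). A further Timp3 probe had the opposite sign (0.60). A list that mixes other inhibitors with cofactors and partners of these proteases held 16 tested genes. Of these, 7 were higher and 9 lower and none passed, and the counts are not counts of inhibitors. Serpina3n, an acute-phase serpin, differed by -0.52 (SE 0.18), Rhbdf2, a partner of ADAM17, by -0.71 (SE 0.29) and Tspan17, a partner of ADAM10, by 0.69 (SE 0.23).

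Of the 7 tested somatic ADAMs with a protease site, 6 were lower and 1 higher in 80W livers, with differences from -0.36 to 0.02 and none past the threshold. The count of lower genes rested on 8W replicates 1 and 2. Without them Adam8, Adam9 (0.055), Adam10, Adam17 and Adam19 (0.42) turned positive, while Adam15 (-0.19) stayed negative. Adam9 had the most precise estimate of all members, at 3.87, 3.84, 3.77 and 4.09 in 80W livers and 4.03, 4.12, 3.78 and 3.90 in 8W livers. The values overlapped, and the 95% interval of the difference ran from -0.45 to 0.32, or 0.73-fold to 1.25-fold. Adam10, the main Notch sheddase, was 1.57, 1.53, 1.57 and 1.63 in 80W livers, and 2.33, 2.51, 1.37 and 1.54 in 8W livers, where replicates 1 and 2 alone were high. It differed by -0.36 (SE 0.27), and by 0.12 without those 2 arrays. Adam17, which releases TNF, differed by -0.19 (SE 0.23), and by 0.16 without them. Adam8, of leukocytes, was 1.57, 1.99, 0.62 and -0.32 in 80W livers and 1.33, 3.26, 0.36 and 0.25 in 8W livers, a difference of -0.33 (SE 0.71) that became 0.66 without 8W replicates 1 and 2. Adam15 differed by -0.10 (SE 0.30) and the sperm protein genes Adam1a and Adam2 by -0.97 (SE 0.58) and 0.99 (SE 0.83). Adam2 was above background on 3 80W arrays and 1 8W array. Of 29 tested substrates of ADAM10 and ADAM17, 12 were higher, 17 lower and none passed. The smallest p there belonged to Cdh1, E-cadherin, at -3.93 (SE 0.86, limma adjusted p = 0.120), followed by the TNF receptor gene Tnfrsf1b at 0.86 (SE 0.20) and the Notch ligand gene Jag1 at -1.56 (SE 0.44), which was -0.77 without 8W replicates 1 and 2.

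Among the ADAMTS genes, Adamts14, a procollagen N-proteinase, had the smallest p of all members. It was 0.90, 0.45, -0.14 and -0.64 in 80W livers and -1.01, -1.23, -0.69 and -0.43 in 8W livers. The 80W replicates 1, 2 and 3 lay above all 8W arrays and replicate 4 within their range. The difference was 0.98 (SE 0.34, limma adjusted p = 0.291), or 0.70 (SE 0.41) without 8W replicates 1 and 2, and another Adamts14 probe gave 0.93. Over the 8 arrays, the tested genes whose values were most like those of Adamts14 by Pearson correlation were Megf11 (0.98), Fcna (0.98), Prxl2a (0.97), an unnamed transcript (0.96) and Cdh13 (0.96). They were picked as the highest among 17567 tested genes over only 8 arrays, so their size is no evidence of a shared control with Adamts14. The related Adamts2 differed by -0.04 with a 95% interval of -0.60 to 0.53. Adamts13, which cuts von Willebrand factor and is made by stellate cells in liver, was -0.65, -1.02, -1.31 and -1.24 in 80W livers and -1.61, -2.62, -1.31 and -1.32 in 8W livers. The groups touched without overlapping, and the difference of 0.66 (SE 0.31, limma adjusted p = 0.375) was 0.26 without 8W replicates 1 and 2.

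The tested proteoglycan-cutting genes Adamts1, Adamts4, Adamts9 and Adamts15 each had a larger SD in 80W than in 8W livers. Adamts4 was 4.38, 2.70, 1.41 and -0.68 in 80W livers and 3.55, 3.87, 2.54 and 2.33 in 8W livers. It thus had both its highest and its lowest value at 80 weeks, and the difference was -1.12 (SE 0.92). That difference was -0.48 without 8W replicates 1 and 2 and ran from -1.93 to -0.24 when single arrays were left out. Adamts1 was 5.03, 4.58, 3.31 and 3.03 in 80W livers, an SD of 0.97, and 4.46, 3.92, 4.84 and 4.61 in 8W livers, an SD of 0.39, with a difference of -0.47 (SE 0.44). Adamts9 was 1.30, 0.89, 1.01 and -1.91 in 80W livers and 0.90, 1.88, 0.10 and 0.35 in 8W livers. Only 80W replicate 4 left the common range of Adamts9, whose difference was -0.49 (SE 0.69), or 0.092 without 8W replicates 1 and 2, and another Adamts9 probe had the opposite sign (0.56). Of the 10 tested members with several tested probes, 3 had probes of opposite sign (Adam11, Adamts9 and Timp3). Adam11 differed by -0.09 on its chosen probe and by 1.04 on another that was above background on all 8 arrays. On that other probe the ages did not overlap, with 0.35 to 0.94 in 80W livers and -1.16 to -0.04 in 8W livers. Adamts15 differed by 0.21 (SE 0.22) and Adamts7, which cuts a cartilage matrix protein, by 0.42 (SE 0.25), or by 0.067 and 0.15 without 8W replicates 1 and 2.

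A few arrays held many of the extreme values. The 80W replicate 1 had the highest value of 15 of the 36 members (41.7%, beside 13.9% of all genes), and 80W replicate 4 the lowest value of 10 (27.8%, beside 9.77%). The 8W replicate 2 had the highest value of 13 (36.1%, beside 20.2%) and the lowest of 11 (30.6%, beside 35.1%). For the 8 ADAMTS genes, the mean deviation from each gene's mean was 0.80, 0.22, -0.10 and -0.88 on 80W arrays and -0.03, -0.04, 0.01 and 0.02 on 8W arrays. The SD was larger at 80 weeks for 6 of the 8 ADAMTS genes (75%), beside 33.0% of all genes. The list of AP-1 factors and inflammatory inducers was also high on 80W replicate 1 and low on replicate 4, at 0.46, 0.19, -0.58 and -0.89 in 80W livers, against 0.28, 0.06, 0.07 and 0.42 in 8W livers. Of its 18 tested genes, 7 were higher, 11 lower and none passed, with Fosb at -2.37 (SE 0.76), Fosl1 at -2.42 (SE 0.83) and Tnf at -0.71 (SE 0.28). Fosl1 was -1.13 without 8W replicates 1 and 2. The endothelial markers ran at 0.39, -0.13, -0.19 and -0.48 in 80W livers and at 0.13, -0.19, 0.15 and 0.32 in 8W livers. This order over the 80W arrays was not particular to these lists. Hepatocyte markers (0.37, 0.01, -0.05 and -0.17) and plasminogen activation genes (0.39, 0.30, -0.11 and -0.24) also fell from replicate 1 to 4. The monocyte and recruited macrophage list (0.12, -0.35, 0.10 and -0.11) did not. The 75th percentile used to scale each 80W array rose from replicate 1 to 4, at 154.7, 214.8, 218.7 and 264.8 intensity units. The part of scaling in the order over the 80W arrays and in the counts of extreme values was not tested. Nor was the part of inducers and cell content in the ADAMTS values.

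**Figure D4:**
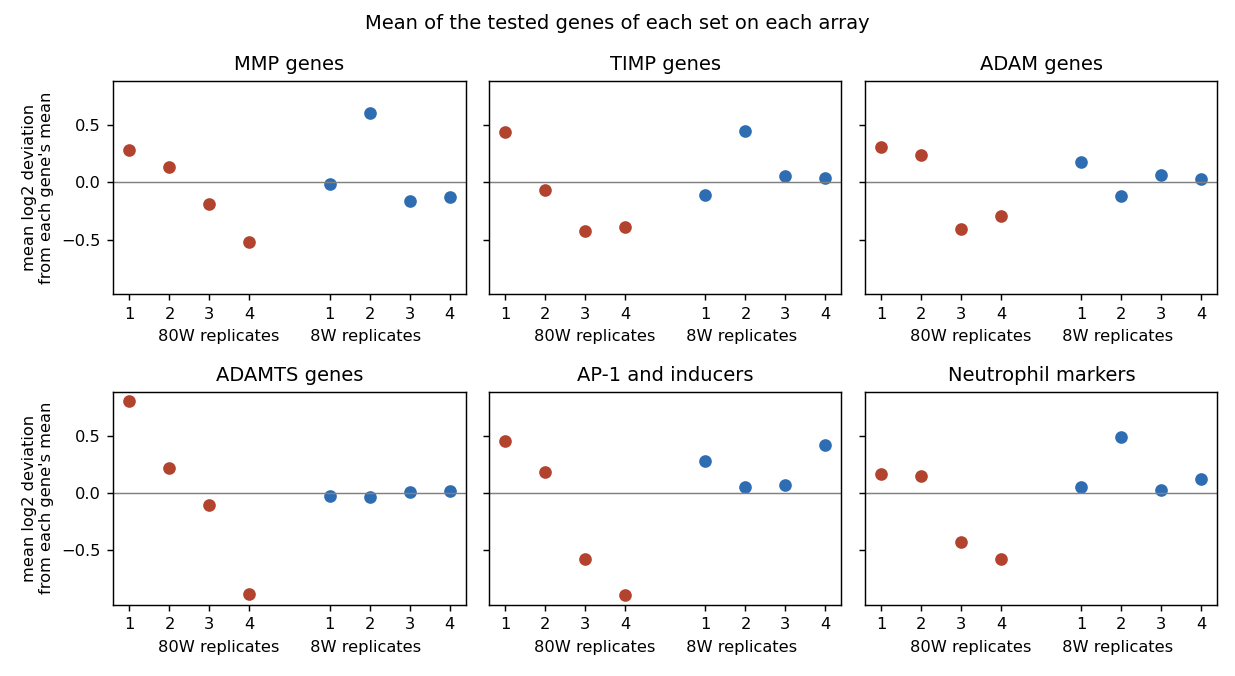
Mean log2 deviation from each gene's own mean (vertical axes) of the tested genes of each family, of the AP-1 and inducer list and of the neutrophil markers, on the 80W arrays (red, left) and the 8W arrays (blue, right). The ADAMTS mean ranges from -0.88 to 0.80 on 80W arrays and stays between -0.04 and 0.02 on 8W arrays.

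Around the families, the plasminogen system held the single pathway gene past the threshold. Serpine2, a serpin that inhibits plasminogen activators and thrombin, was 4.44, 4.82, 4.06 and 3.49 in 80W livers and 1.69, 0.86, 1.25 and 1.06 in 8W livers. It rose in every 80W liver relative to every 8W liver, with a difference of 2.99 (SE 0.31, limma adjusted p = 0.00451), and of 3.05 without 8W replicates 1 and 2 together, where the limma adjusted p was 0.0584. Of the 11 tested genes of that list, 7 were higher and 4 lower, and the plasma kallikrein gene Klkb1 at 1.19 (SE 0.37) did not pass. None of the 6 proprotein convertases passed (5 higher, 1 lower), with Pcsk4 at 1.35 (SE 0.38) and Pcsk6 at 0.42 (SE 0.18). None of the 21 matrix genes passed (12 higher, 9 lower), with the collagen genes Col6a3 at 1.35 (SE 0.31) and Col14a1 at 0.89 (SE 0.29) and the basement membrane gene Nid1 at -1.56 (SE 0.56). None of the 14 cathepsins and other matrix proteases passed (11 higher, 3 lower), with Hpse at 0.42, Ctsh at 0.52 and Ctsz at 0.26. Without 8W replicates 1 and 2 the differences were 0.65 for Klkb1, 0.64 for Pcsk4, 0.48 for Col14a1, -0.53 for Nid1, 0.17 for Hpse, 0.19 for Ctsh and 0.10 for Ctsz. Of the cell type markers, Jchain, an antibody-joining protein of plasma cells, was the one gene past the threshold (5.41, SE 0.70, limma adjusted p = 0.0127, above background on 1 of 4 8W arrays). Its limma adjusted p was 0.0502, 0.0687 and 0.0686 without 80W replicate 1, 3 or 4, and 0.0935 without 8W replicates 1 and 2 together. The stellate cell list had 5 genes higher and 7 lower, and its differences ran from -0.53 to 1.34 with a median of -0.11. Its 2 genes of smallest p, Reln at 1.05 (SE 0.24) and Lrat at 1.34 (SE 0.37), thus did not stand for the list. The Kupffer cell list had 9 genes higher and 2 lower, and no gene of either list passed the threshold.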

How the data were processed

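Total RNA from 8 livers was measured on 8 single-colour Agilent arrays. The deposited scanner files give spot intensity values after background correction by Feature Extraction 10.7.3.1, per the file headers. The submitters' processing notes give version 9.1 of that software. In the authors' deposited table, intensity values equalled the processed signal within 1% for 100% of 56605 probes. No scaling between arrays had therefore been applied, and the table served as an alternative. Per the file headers there was 1 slide and 1 scan. The 80W samples were on row 2 of the slide and the 8W samples on row 1, so age and slide row cannot be told apart.

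The processed signal was used without outlier spots, averaged per probe, put on the log2 scale and reduced by the array's own 75th percentile over non-control probes (154.7 to 352.8 intensity units). Between 43.4% and 50.4% of probes per array were well above background, and no spot was saturated. Probes detected on 4 or more of 8 arrays were tested, taking the brightest for each gene. The ages were contrasted by lmFit and eBayes of limma 3.58.1 (R 4.3.3). P-values were adjusted by Benjamini-Hochberg over 17567 genes, at a threshold of 0.05. No set was tested, and lists are described by counts beside those of all genes. Intervals are at 95%. All 79 members matched a RefSeq symbol. Promoters are from RefSeq on GRCm38.p6, and the array files give each probe's position on mm9.

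Members, lists and tests were chosen with earlier results of these data known. Named members are those with an unadjusted p under 0.05, the 10 with the largest absolute difference, the TIMPs and 20 well-known family genes, 28 in all, of which 24 were tested. Mmp1a, Mmp1b, Mmp7, Mmp10, Mmp17, Mmp27, Mmp28, Adam11, Adam19, Adam23, Adam28, Adamts2, Adamts7 and Adamts15 fall outside this rule and were named after their values were seen. From each list around the families the 3 genes (for cell type lists, 2) with the smallest p are named where the list is set beside the members, except that some genes are not reported here. The 5 genes most like the member of smallest p are also named. On simulated data over 17567 genes for this comparison, 24% of 50 genes changed 2-fold, 78% changed 4-fold, 94% changed 8-fold and 100% changed 16-fold were recovered, and 4 of 17367 unchanged genes were called. Alternatives changed background correction, scaling, filters, probe choice, outlier spots, the variance prior and array weights, added a replicate block, used the authors' table, or omitted arrays. The number of arrays limits the precision.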

Additional observations from a re-analysis of the deposited data

Results flagged for a closer look

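In 6 of 90 groups of 4 arrays that were examined, 1 array lay far from the other 3 by Dixon's criterion. For continuous values chance alone gives about 5%. Adam2 was -5.28 on 1 80W array and between -2.21 and -1.95 on the others. Adamts9 was -1.91 on 1 80W array and between 0.89 and 1.30 on the others. Timp3 was 3.92 on 1 8W array and between 4.06 and 4.08 on the others, a gap that is small in size. For counts of detected members, 1 80W array had 12 ADAMs where the others had 13, and 1 80W array had 10 ADAMTS genes where the others had 9. A single 8W array had 4 TIMPs where the others had 3. These counts differ by 1 gene each, and 1 count that differs from 3 equal ones always meets the criterion. The 6 of 90 can therefore not be set against the 5%.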

How the results depend on the processing

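No member passed the threshold in any of the 20 other settings, and the lowest member adjusted p among them was 0.148 (Adam23, limma array weights). Over all genes the main count of 63 was 21 with the filter on all 8 arrays, 172 with array weights and 16 without 8W replicates 1 and 2 together, and ran from 10 to 75 when single arrays were left out (10 without 80W replicate 3 and 10 without 80W replicate 4). The pathway lists held 1 gene past the threshold, 2 with array weights, 4 with the replicate block, 0 without 8W replicates 1 and 2 together and 1 in each omission of a single array. Of 24 named tested members, 13 kept their sign in every setting that gave a value. With normexp, Mmp12 was -0.086, and with the mean of a gene's probes Timp3 was 0.044. With array weights, the differences were 0.029 for Adam10, 0.042 for Adam17, -0.060 for Adam2, 0.48 for Adam8, 0.028 for Adam9, -0.054 for Mmp2 and -0.17 for Timp2. Without 8W replicates 1 and 2 they were 0.12 for Adam10, 0.16 for Adam17, -0.077 for Adam2, 0.66 for Adam8, 0.055 for Adam9, 0.092 for Adamts9, -0.11 for Mmp2 and -0.16 for Timp2. Omission of single arrays gave ranges of -0.36 to 0.14 for Adam15, -0.68 to 0.32 for Adam8, -0.82 to 0.26 for Adamts9, -0.36 to 1.09 for Mmp12 and -0.051 to 0.34 for Timp2. The causes were not tested. Without a filter on dim probes the median of all genes was 0.19, so differences there stand against that shift. With the positive-and-significant call, the mean number of detected members differed by -1.25 in place of 0.50. Same-numbered arrays of both ages correlated at 0.03, 0.14, 0.11 and 0.10 in their deviations, so not every pair was over 0.1 and no pairing was assumed. The number is also the slide column at both ages, and the replicate block gave 70 genes past the threshold and 0 members. Precision is limited by the number of arrays, and dim members such as Mmp3, Mmp9 and Mmp23 were above background on only part of the arrays.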
